A study of Drosophila melanogaster with 4 samples.

Results

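The proteasome subunit genes of *Drosophila melanogaster* were followed in RNA-seq libraries of S2R+ cells with and without an enhancer of *Notch*. They were taken by their symbols, as every gene whose name starts with Prosalpha, Prosbeta, Rpn or Rpt followed by a digit and that has a transcript in the quantification. This gave 48 genes of the 13909 quantified, and 48 genes with such names stand in the annotation, so none was lost. Of these, 32 carry plain names and encode subunits of the somatic particle, and 16 are paralogs with the suffix T or R, most of them known from the testis, which were set apart.

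The proteasome is the protease that degrades ubiquitin-tagged proteins in every eukaryotic cell. Its core, the 20S particle, is a barrel of stacked rings, in which the outer alpha rings guard the entrance and the inner beta rings hold the catalytic sites. The 19S cap on its ends has a base, whose ATPases unfold the substrate and whose other subunits capture ubiquitin, and a lid, which removes the ubiquitin chain. The subunits enter the particle in fixed proportions, and in animals their genes are known to be switched on together by a Cap'n'collar transcription factor when the protease is inhibited.

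S2R+ is a male line derived from late Drosophila embryos, with features of hemocytes, and its cells are tetraploid. Wild-type cells were compared with a CRISPR mutant that lacks the enhancer in the fifth intron of *Notch*, which the study made to ask how this element shapes the locus and its transcription. The mutant had been transfected, selected with puromycin and grown from a homozygous clone, while the wild-type cells are described as S2R+ without an edit. A clone that went through the same steps without the deletion was not analysed here, so the deletion and the cloning cannot be told apart. Both kinds of cells were kept at 25 °C in the same medium, and 2 total RNA libraries of each were sequenced as paired-end reads of 150 bp. The labels do not say that the libraries of a group came from separate cultures, so the p values measure the spread between these libraries, which may be technical.

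Depth was 16240543 to 29605002 estimated counts per library, with both mutant libraries deeper than both wild-type libraries. *Notch* itself was at 160 and 126 CPM (counts scaled to a common library size, with TMM factors) in the wild-type and at 38.1 and 35.3 in the mutant, and its log2 fold change was -1.96 (SE 0.126; adjusted p = 9.46e-07). Here and below, a fold change is the mutant over the wild-type, and its adjusted p is that of the quasi-likelihood test in edgeR, corrected by Benjamini-Hochberg over the 8182 genes tested. A gene was called when the adjusted p was below 0.05 and the log2 fold change was at least 0.5 in size, a rule met by 2285 genes (27.9%), 1254 of them lower (15.3%) and 1031 higher (12.6%). All 8 hemocyte markers examined were detected, summing to 538 to 618 CPM in the wild-type and 790 to 812 in the mutant, although *NimC1* did not exceed 2 counts in any library. Of the 6 that could be tested, 1 was called lower (*Hml*, -1.79), beside 15.3% of all tested genes. Called higher, beside 12.6%, were 3, namely *crq* (1.12), *Sr-CI* (0.60) and *He* (2.75). *He* had 4 and 1 counts in the wild-type and 31 and 16 in the mutant. It could be tested only for its counts in the mutant, so nothing is read from its call. *Pxn* passed the adjusted p alone (0.39) and *srp* did not pass (-0.10). Of the 4 neuronal markers, *elav* was at 45.6 CPM or more in each library and passed the adjusted p alone (-0.33), while *nSyb*, *Syt1* and *brp* had at most 19 counts. The 3 follicle cell markers had at most 8 counts and the 4 muscle markers at most 13.

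The somatic proteasome genes changed little in the mutant. All 32 were tested, 1 was called (*Rpn13*, lower) and none was called higher, against 15.3% and 12.6% of all genes. Of the 2190 genes in the abundance range of these 32, 149 were called lower and 293 higher. With the adjusted p alone, 5 of the 32 passed lower (*Prosalpha2*, *Rpn1*, *Rpn2*, *Rpn3* and *Rpn13*), 2 passed higher (*Prosalpha1* and *Rpn5*) and 25 did not pass. Of all genes, 24.2% passed lower and 24.5% higher (48.7% in either direction). The count of called somatic genes was 1 with DESeq2 as well. The passes without the limit on size were less secure, since *Rpn13* alone passed without mutant replicate 1, and *Rpn13* and *Prosalpha1* without mutant replicate 2, when 33.1% and 27.6% of all genes still passed. A p that misses the threshold does not show that a gene is equal in both groups, so the intervals matter here, and those of the 25 genes are drawn in the plot of fold changes by class.

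Taken over the 32 genes, the log2 fold changes ran from -0.62 to 0.40 with a median of 0.04, and the median of all tested genes was -0.0037. Their median size regardless of sign was 0.16, against 0.32 for all tested genes and 0.26 for the 2190 genes that lie in the same range of abundance. A log2 fold change smaller than 0.5 was found in 31 of the 32 (96.9%), in 68.0% of all tested genes and in 79.8% of those in the same abundance range, where 20.2% were called. These shares describe the list, which was chosen by name, and no test of the list against other genes was made. In CPM, 12 genes had both mutant libraries below the wild-type ones (37.9% of all genes), 9 were higher in both (37.7%) and 11 overlapped.

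**Figure D1:**
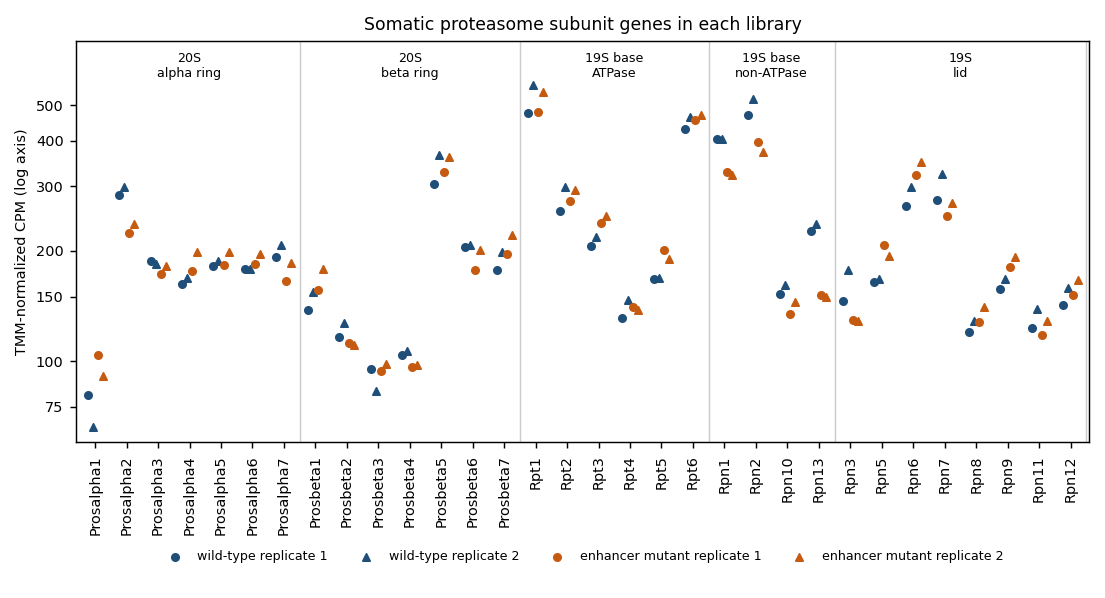
TMM-normalized CPM (log axis) of the 32 somatic proteasome genes, ordered by their place in the particle, with 1 point per library. The mutant libraries (orange) lie below both wild-type libraries (blue) in 12 genes, above them in 9 and among them in 11, and *Rpn13* shows the clearest gap, with 227 and 237 against 152 and 150 CPM.

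**Figure D2:**
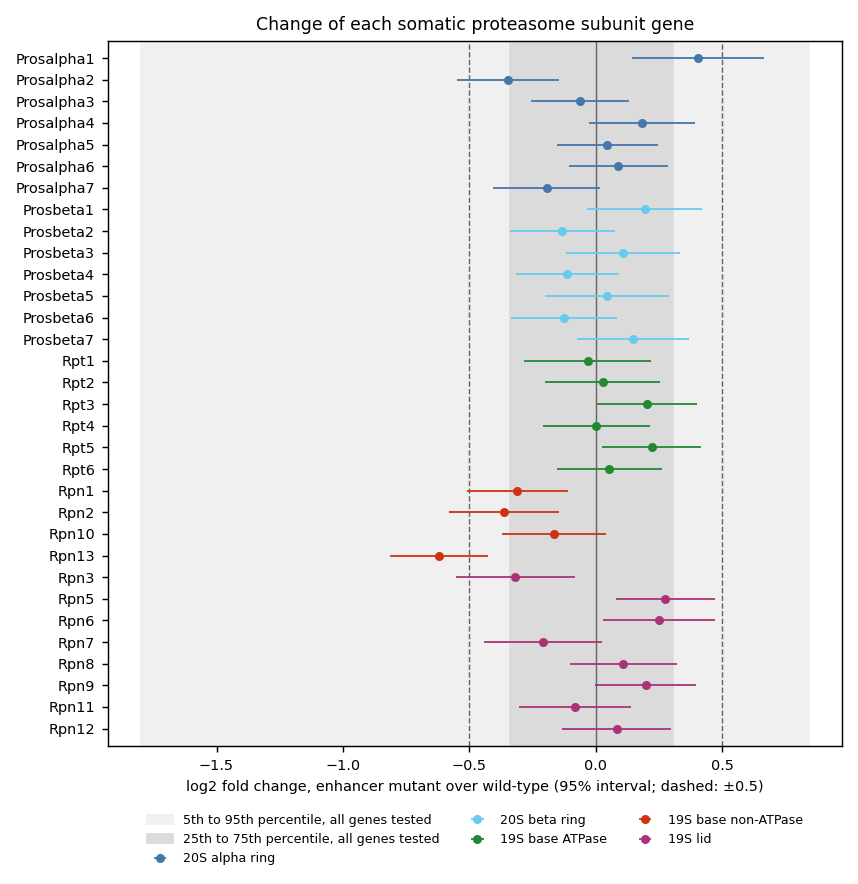
Log2 fold change of each somatic gene, mutant over wild-type, with its 95% interval from the edgeR fit, coloured by class. Grey bands span the 5th to 95th and the 25th to 75th percentile of all 8182 tested genes, which reach from -1.80 to 0.84 and from -0.34 to 0.31, and the dashed lines mark 0.5 in either direction.

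The 7 genes of the alpha ring, which forms the gated ends of the barrel, had a median log2 fold change of 0.05, and none was called. *Prosalpha2* was at 285 and 300 CPM in the wild-type and at 223 and 237 in the mutant. Both mutant libraries were below both wild-type libraries, and its log2 fold change of -0.35 (SE 0.0910) passed the adjusted p alone (edgeR, adjusted p = 0.00958) but not the limit on size. *Prosalpha1* was at 81.0 and 66.2 CPM in the wild-type and at 104 and 91.0 in the mutant. Its groups did not overlap either, in the other direction, with a log2 fold change of 0.40 (SE 0.118) and an edgeR adjusted p of 0.0161. That value moved with the libraries used. Without wild-type replicate 1 it was 0.56 and called, and it no longer passed without wild-type replicate 2 (0.27; edgeR, adjusted p = 0.0594) or without mutant replicate 1 (0.31; edgeR, adjusted p = 0.166). The other 5 genes, *Prosalpha3* to *Prosalpha7*, had values from -0.19 (*Prosalpha7*) to 0.18 (*Prosalpha4*), and none passed the adjusted p.

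In the beta ring none of the 7 genes passed the adjusted p, and their log2 fold changes ran from -0.13 to 0.19. The 3 genes of the catalytic sites come first. *Prosbeta5*, which carries the chymotrypsin-like site, was at 304 and 366 CPM in the wild-type and at 329 and 362 in the mutant. Its mutant libraries lay between the wild-type libraries, and the 95% interval of its log2 fold change was -0.20 to 0.29. *Prosbeta1*, the caspase-like subunit, was at 138 and 155 CPM in the wild-type and at 156 and 179 in the mutant. Its groups were apart by a narrow margin, and its log2 fold change of 0.19 (SE 0.103) did not pass (edgeR, adjusted p = 0.145). *Prosbeta2*, the trypsin-like subunit, was at 117 and 127 CPM in the wild-type and at 112 and 110 in the mutant, with a log2 fold change of -0.13 (SE 0.0944; edgeR, adjusted p = 0.267). Its groups did not overlap, but the gap between them was smaller than the distance between the wild-type libraries. Among the non-catalytic beta subunits the values were 0.11 for *Prosbeta3*, -0.11 for *Prosbeta4*, -0.13 for *Prosbeta6* and 0.15 for *Prosbeta7*.

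The 6 ATPases of the base, *Rpt1* to *Rpt6*, form the ring that pulls substrates into the core, and their log2 fold changes spanned the smallest range of the 5 classes, from -0.03 to 0.22. None was called and none passed the adjusted p. *Rpt1* was at 477 and 568 CPM in the wild-type and at 479 and 544 in the mutant, so that both mutant libraries fell inside the wild-type range. *Rpt5* was at 167 and 169 CPM in the wild-type and at 201 and 190 in the mutant. These groups did not overlap, and the log2 fold change of 0.22 (SE 0.0882) narrowly missed the adjusted p (edgeR, adjusted p = 0.0596). The values of the others were 0.03 for *Rpt2*, 0.20 for *Rpt3*, 0.0025 for *Rpt4* and 0.05 for *Rpt6*.

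The 4 other subunits of the base were the class with the lowest values. For each of *Rpn1*, *Rpn2*, *Rpn10* and *Rpn13* the mutant libraries lay below the wild-type libraries in CPM, as in 37.9% of all tested genes. Their median log2 fold change was -0.34. The adjusted p was passed lower by 3 of them, beside 24.2% of all tested genes. Of the 4, 1 (*Rpn13*) was called lower, beside 15.3% of all tested genes. *Rpn13* is a ubiquitin receptor that sits on *Rpn2* and docks the deubiquitinase *Uch-L5*. Its gene (FBgn0033886) lies on chromosome arm 2R at 13958545 to 13960404 on the minus strand in dm6 coordinates. Its estimated counts were 4636 and 4150 in the wild-type and 4229 and 3436 in the deeper mutant libraries, which is 227 and 237 CPM against 152 and 150. The libraries of each group lay close together and far from the other group. The log2 fold change was -0.62 (SE 0.0876, 95% interval -0.81 to -0.43), a drop to 0.65 of the wild-type level, with an edgeR adjusted p of 2.62e-04. *Rpn13* was called under each of the alternatives run on it, with log2 fold changes from -0.82 to -0.58 in the count-based fits and edgeR or DESeq2 adjusted p values from 2.72e-08 to 0.0129.

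*Rpn2* and *Rpn1* are the large scaffold proteins of the base. *Rpn2* fell from a mean of 495 CPM (SD 34.1, n = 2) in the wild-type to 385 (SD 17.3, n = 2) in the mutant by the adjusted p alone, with a log2 fold change of -0.36 (SE 0.0980; edgeR, adjusted p = 0.0109). *Rpn1*, on which shuttle factors and *Usp14* dock, fell in the same sense from 404 (SD 0.143, n = 2) to 326 CPM (SD 5.64, n = 2), with a log2 fold change of -0.31 (SE 0.0903; edgeR, adjusted p = 0.0159). *Rpn10*, another ubiquitin receptor, was at 152 and 161 CPM in the wild-type and at 135 and 145 in the mutant. Its groups did not overlap, but its log2 fold change of -0.17 (SE 0.0924) did not pass (edgeR, adjusted p = 0.161). Whether this class differed from the other classes was not tested, since it has 4 members and was read off the same fit.

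The 8 lid genes taken by these names held values in both directions, and none was called. *Rpn3* was at 146 and 177 CPM in the wild-type and at 130 and 129 in the mutant, with a log2 fold change of -0.32 (SE 0.107; edgeR, adjusted p = 0.0300). Both mutant libraries were below both wild-type libraries, which were themselves far apart, and without wild-type replicate 2 the value was -0.17 (edgeR, adjusted p = 0.231). *Rpn5* was at 165 and 168 CPM in the wild-type and at 208 and 194 in the mutant, with a log2 fold change of 0.28 (SE 0.0892; edgeR, adjusted p = 0.0257). Here the wild-type libraries were close together and the mutant libraries stood above them. The lid's catalytic pair had -0.08 for the deubiquitinase *Rpn11* (95% interval -0.30 to 0.14) and 0.11 for its partner *Rpn8* (-0.10 to 0.32), and neither passed the adjusted p. The remaining values were 0.25 for *Rpn6*, -0.21 for *Rpn7*, 0.20 for *Rpn9* and 0.08 for *Rpn12*, and none passed. *Sem1*, which the naming rule does not take, was counted with the associated proteins (0.33, SE 0.139; edgeR, adjusted p = 0.0725).

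The scale matters for the direction of small changes. In TPM, the deposited per-length unit in which every library has the same sum, 31 of the 32 genes had their mutant libraries below their wild-type libraries, but so had 71.0% of all tested genes. The median log2 ratio of mean TPM was -0.40 for the 32 genes and also -0.40 for all tested genes. The median of the somatic proteasome genes thus lay at that of all tested genes. *Rpn13*, at 203 and 218 TPM in the wild-type and 109 and 97.2 in the mutant, lay well below both. With library sizes alone in place of TMM factors, the median of the 32 was -0.16 and that of all tested genes was -0.20. On that scaling 5 of the 32 genes were called, each lower, and 2544 of all genes, 1984 of them lower and 560 higher.

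TPM also allows levels to be compared between genes. In the wild-type libraries the 32 genes summed to 6424 and 7112 TPM, which is 0.642% and 0.711% of the transcriptome quantified, and in the mutant libraries to 5047 and 4869 TPM, or 0.505% and 0.487%. These sums are to be read beside the median log2 TPM ratio of -0.40 for all tested genes. The highest wild-type means were 445 TPM for *Prosalpha2* (SD 21.7, n = 2), 414 for *Rpt1* (SD 61.2), 377 for *Rpt6* (SD 29.1) and 376 for *Prosbeta5* (SD 57.9). The lowest were 95.2 TPM for *Rpn5* (SD 3.93, n = 2), 102 for *Rpn8* (SD 7.51), 104 for *Prosalpha1* (SD 11.9) and 110 for *Rpn3* (SD 18.4). This order sets *Prosalpha1R* apart, which had 672 TPM (SD 68.0, n = 2), and the *Prosalpha1* copies together had 737 and 816 TPM in the wild-type, above every other gene. With *Prosalpha1* alone, the most abundant subunit transcript in a library exceeded the least abundant by 4.35-fold to 4.93-fold, and with the copies summed by 7.97-fold to 9.98-fold, although the proteins enter the particle in fixed proportions.

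Along the wild-type order 27 of the 31 pairs of neighbours had overlapping libraries. Overlap was judged across libraries, so a gene above its neighbour within each library could still overlap it, as *Prosalpha2* and *Rpt1* did. The libraries did not overlap at the steps below *Prosbeta5*, *Prosalpha5*, *Prosalpha7* and *Prosbeta3*. Below *Prosalpha5* the gap was narrow, from 295.9 TPM in its lower library to 295.2 in the higher library of *Prosalpha7*. Below *Prosalpha7* it was narrow as well, from 267.8 TPM to 266.0 in the higher library of *Prosalpha3*. In the mutant the order was much the same, with 24 of the 32 genes within 3 ranks of their wild-type place. The largest shift was that of *Rpn13*, from rank 14 to rank 23, followed by *Prosalpha1* from 30 to 22 and *Rpn2* from 20 to 27. The class sums of the base non-ATPases were 623 and 679 TPM in the wild-type and 390 and 351 in the mutant, and those of the base ATPases were 1326 and 1535 against 1123 and 1072. On this scale the median log2 ratio of all tested genes was -0.40, and in the edgeR fit the ATPases ran from -0.03 to 0.22.

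**Figure D3:**
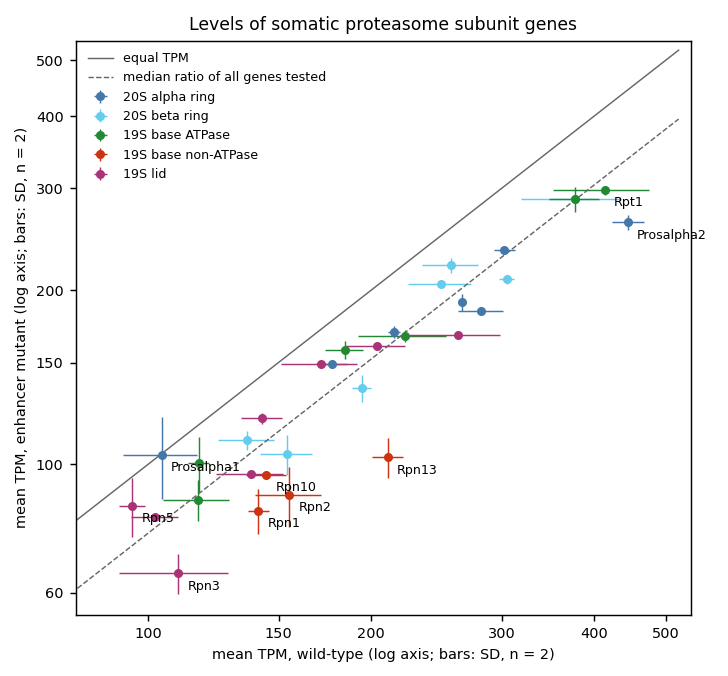
Mean TPM of the 32 somatic genes in the mutant against the wild-type (both axes logarithmic), with bars for the SD of 2 libraries. The dashed line marks the median ratio of all tested genes, -0.40 on the log2 scale, and the points follow it rather than the line of equal TPM, with *Rpn13* farthest below among those named.

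The transcript forms of these genes were stable. Of the 32 genes, 17 had 1 annotated form in the quantification and 15 had several, and the same form led in all 4 libraries for each of the 15. In 10 of them the leading form held over 95% of the gene's TPM in every library. *Rpn13*, with 6 forms, had a leading form (FBtr0087611) at 77.1% and 77.4% of its TPM in the wild-type and at 76.3% and 75.3% in the mutant, and a second form (FBtr0114494) at 18.7% and 18.3% against 20.5% and 21.6%. Both forms thus took about the same part of a smaller total. *Prosbeta4* had the most even split, its leading form (FBtr0080936) holding 57.5% and 71.0% in the wild-type and 68.1% and 70.1% in the mutant, so that the libraries of the wild-type differed more from each other than the groups did.

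Most of the 16 paralogs were silent or nearly so in these cells. Of them, 10 had 0 estimated counts in all 4 libraries, which allows levels of up to 0.101 to 0.185 CPM, the worth of 3 counts in a library, and 2 more (*Prosalpha4T2* and *Rpt4R*) had 1 count in 1 library. These limits cover counting error only. The 4 with over 3 counts in some library were *Prosalpha1R*, *Rpt3R*, *Rpt6R* and *Prosbeta2R2*, and all 4 passed the filter on low counts. Since the filter admits a gene for its counts in either group, no share of called paralogs is read from these 4.

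*Rpt3R*, a copy of the ATPase gene *Rpt3* on arm 3R (9754735 to 9756510), had 142 and 130 estimated counts in the wild-type and 7 and 13 in the mutant. In CPM this was 6.94 and 7.42 against 0.251 and 0.567. Every mutant library was below 1 CPM, and *Rpt3R* fell with a log2 fold change of -4.16 (SE 0.340; edgeR, adjusted p = 5.95e-06). It made up 3.03% and 3.08% of the summed TPM of *Rpt3* and *Rpt3R* in the wild-type and 0.0964% and 0.209% in the mutant. Its somatic counterpart *Rpt3* did not pass the adjusted p (log2 fold change 0.20, SE 0.0897; edgeR, adjusted p = 0.0837).

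*Rpt6R*, a copy of *Rpt6* on the same arm (30582198 to 30583697), had 434 and 446 estimated counts in the wild-type and 184 and 152 in the mutant, or 21.2 and 25.5 against 6.59 and 6.63 CPM. The groups were far apart, and *Rpt6R* fell with a log2 fold change of -1.82 (SE 0.141; edgeR, adjusted p = 4.11e-06). Its share of the pair with *Rpt6* was 4.42% and 4.91% in the wild-type and 1.33% and 1.31% in the mutant. *Rpt6* itself was at a mean of 446 CPM (SD 23.3, n = 2) in the wild-type and 463 (SD 9.68, n = 2) in the mutant, with a log2 fold change of 0.05. Both calls, of *Rpt3R* and of *Rpt6R*, held under every alternative that could be run on them, although *Rpt3R* was not tested where 10 counts were required in every library.

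*Prosbeta2R2* had 13 and 9 estimated counts in the wild-type and 3 and 6 in the mutant. The groups did not overlap, and the gene was called lower with a log2 fold change of -1.67 (SE 0.595; edgeR, adjusted p = 0.0384). The call ended with DESeq2 (adjusted p = 0.265) and with each of 3 libraries left out in turn, namely wild-type replicate 1 (edgeR, adjusted p = 0.171), wild-type replicate 2 (0.0578) and mutant replicate 1 (0.192).

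The germ line genes *bam* and *bgcn* were lower in the same libraries as *Rpt3R* and *Rpt6R*. Of the 10 germ line markers examined, 9 were quantified and *nos* was not analysed here. Among the 9, only *bam* and *bgcn* could be tested, and both were called lower, as were 15.3% of all tested genes. The gene *bam*, which ends the mitotic divisions of germ cells, had 257 and 237 counts in the wild-type and 44 and 26 in the mutant (log2 fold change -3.24, SE 0.217; edgeR, adjusted p = 1.30e-06). Its partner *bgcn* had 183 and 170 against 72 and 56 counts (-1.89, SE 0.197; edgeR, adjusted p = 3.60e-05). The defining germ cell gene *vas* had 6 to 9 counts per library, *can* had 1 count in 1 library, and the spermatocyte and sperm genes *aly*, *comr*, *Mst87F*, *dj* and *ocn* were at 0 in all 4. The 9 markers summed to 21.9 and 23.6 CPM in the wild-type and 4.41 and 3.88 in the mutant. The part that this movement has in the values of *Rpt3R* and *Rpt6R* was not tested. In bulk libraries, fewer cells with a transcript and less of it per cell cannot be told apart.

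**Figure D4:**
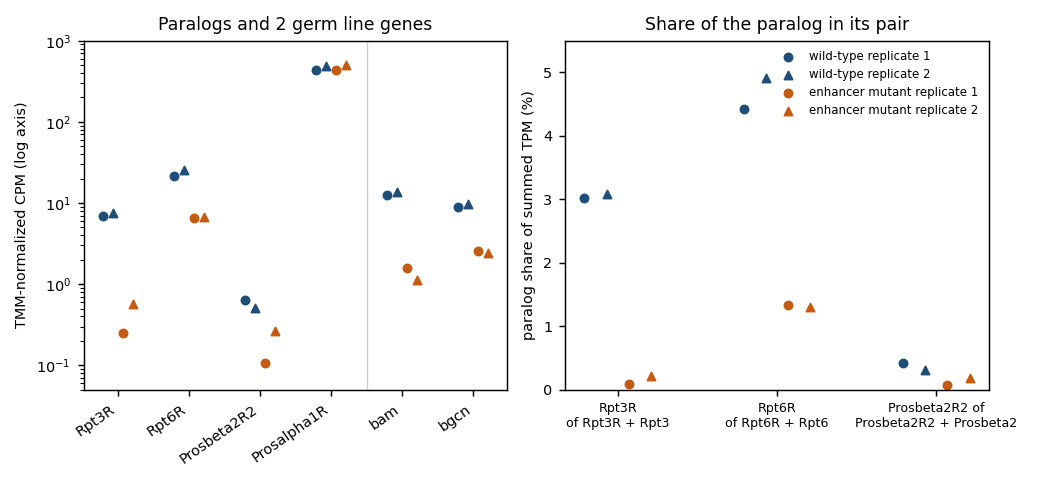
Left, TMM-normalized CPM (log axis) of the 4 paralogs with over 3 counts and of the germ line genes *bam* and *bgcn*, 1 point per library. Right, the paralog's share of the summed TPM of its pair, which for *Rpt6R* is 4.42% and 4.91% in the wild-type and 1.33% and 1.31% in the mutant.

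*Prosalpha1R* went against its place among the sparse paralogs. It had 8632 to 12122 estimated counts per library, and it held 84.7% and 88.2% of the summed TPM of *Prosalpha1* and *Prosalpha1R* in the wild-type and 81.1% and 85.0% in the mutant, so that the copy named as a paralog was 4.28 to 7.50 times as abundant as the gene with the plain name. The pair lie in tandem on arm 2R, on the same strand and 1734 bases apart. *Prosalpha1R* was at 434 and 493 CPM in the wild-type and at 434 and 503 in the mutant, with a log2 fold change of 0.02 (SE 0.109; edgeR, adjusted p = 0.917), and the groups overlapped. How alike the copies are in sequence was not analysed here, and where reads fit either copy their division by Salmon is uncertain. One form of *Prosalpha1* (FBtr0088896) took 0% of that gene's TPM in wild-type replicate 1 and 17.8% in wild-type replicate 2. With the copies summed, a choice made after their values were seen, the counts were 10543 and 9792 in the wild-type and 15022 and 13616 in the mutant, and the log2 fold change was 0.08 (SE 0.10; edgeR, adjusted p = 0.558), a sum that follows *Prosalpha1R*, which holds most of it, and that does not bear on *Prosalpha1* alone.

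Of 25 genes that work with the proteasome, in 3 lists, 6 were called (24%), close to the 27.9% of all tested genes. Of 8 assembly factors, activators and associated proteins, 1 was called, higher (12.5%, beside 12.6% of all tested genes), and the median log2 fold change was 0.24. The adjusted p was passed by 3, each higher, as it was by 24.5% of all tested genes. *PI31*, a regulator that binds the core particle, was at 82.0 and 91.7 CPM in the wild-type and at 127 and 128 in the mutant, and it rose with a log2 fold change of 0.55 (SE 0.0981; edgeR, adjusted p = 0.00109). Without wild-type replicate 1 its value was 0.48, under the limit on size. The others to pass the adjusted p were *Uch-L5* (0.29; edgeR, adjusted p = 0.0246), the enzyme that docks on *Rpn13*, and *CG9588* (0.37; edgeR, adjusted p = 0.0117), the counterpart of a mammalian assembly chaperone of the base. With library sizes alone neither passed (edgeR, adjusted p = 0.492 and 0.174), nor did *Uch-L5* with the effective-length offset (edgeR, adjusted p = 0.0646). Without wild-type replicate 1 the value of *CG9588* was 0.28. *Pomp*, which is needed to mature the core particle, was at 72.4 and 77.7 CPM in the wild-type and at 76.8 and 78.5 in the mutant, so that its groups overlapped (log2 fold change 0.05, SE 0.0934; edgeR, adjusted p = 0.688).

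Among 12 genes of ubiquitin supply and delivery, 1 was called lower (8.33%, beside 15.3% of all tested genes) and 2 higher (16.7%, beside 12.6%). *TER94*, the ATPase known as p97 in mammals that extracts ubiquitinated proteins for degradation, was at 1175 and 1351 CPM in the wild-type and at 892 and 859 in the mutant (log2 fold change -0.53, SE 0.108; edgeR, adjusted p = 0.00241). It fell just past the limit on size, which it missed without wild-type replicate 2 (-0.42) or without mutant replicate 2 (-0.4995). The genes *RpL40* and *RpS27A*, which encode ubiquitin fused to a ribosomal protein, rose. *RpL40* was at 853 and 743 CPM in the wild-type and at 1184 and 1239 in the mutant (0.60, SE 0.107; edgeR, adjusted p = 0.00114). *RpS27A* was at 1686 and 1811 CPM against 2602 and 3136 (0.71, SE 0.123; edgeR, adjusted p = 9.07e-04). By contrast, the polyubiquitin gene *Ubi-p63E* (-0.34; edgeR, adjusted p = 0.0161) and the ubiquitin-activating enzyme *Uba1* (-0.35; edgeR, adjusted p = 0.0147) passed the adjusted p alone with lower values, and the other 7 of the 12 did not pass.

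The 5 regulators of proteasome gene transcription held values in both directions. Of them, 1 was called lower (20%, beside 15.3% of all tested genes) and 1 higher (20%, beside 12.6%). *Keap1*, which holds the Cap'n'collar factor in check, was at 25.6 and 26.4 CPM in the wild-type and at 13.3 and 12.3 in the mutant, and it fell with a log2 fold change of -1.02 (SE 0.112; edgeR, adjusted p = 4.97e-05). The gene of the factor itself, *cnc*, was at 107 and 90.4 CPM in the wild-type and at 83.6 and 75.3 in the mutant, and passed the adjusted p alone (-0.31, SE 0.111; edgeR, adjusted p = 0.0365). It did not pass with DESeq2 (adjusted p = 0.0530), with the effective-length offset (edgeR, adjusted p = 0.0534) or without wild-type replicate 1 (-0.18; edgeR, adjusted p = 0.207). Its partner *maf-S* was at 65.0 and 79.4 CPM in the wild-type and at 105 and 125 in the mutant, and rose with a log2 fold change of 0.67 (SE 0.125; edgeR, adjusted p = 0.00140). *Pngl*, whose counterparts in worm and mammals process this factor, passed the adjusted p alone (0.30; edgeR, adjusted p = 0.0162), and *sip3* did not pass. The somatic subunit genes, with their median of 0.04, stand beside values from -1.02 to 0.67 for these 5 genes.

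Complexes of similar build served as a further yardstick. Of the 9 genes of the COP9 signalosome, a relative of the lid, *CSN1a* had no counts, and among the 8 tested none was called. The adjusted p was passed lower by 1 (*CSN6*) and higher by 1 (*alien*, the CSN2 subunit), beside 24.2% and 24.5% of all tested genes, and the median was 0.08. The 8 genes of the cytosolic chaperonin, also a ring of fixed subunits, had none called and a median of -0.11. Of them, 3 passed the adjusted p lower (*CCT1*, *CCT4* and *CCT8*), beside 24.2% of all tested genes. No gene of either complex was called, where 27.9% of all tested genes were. With 8 genes tested in each, no trait shared with the proteasome is read from this.

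**Figure D5:**
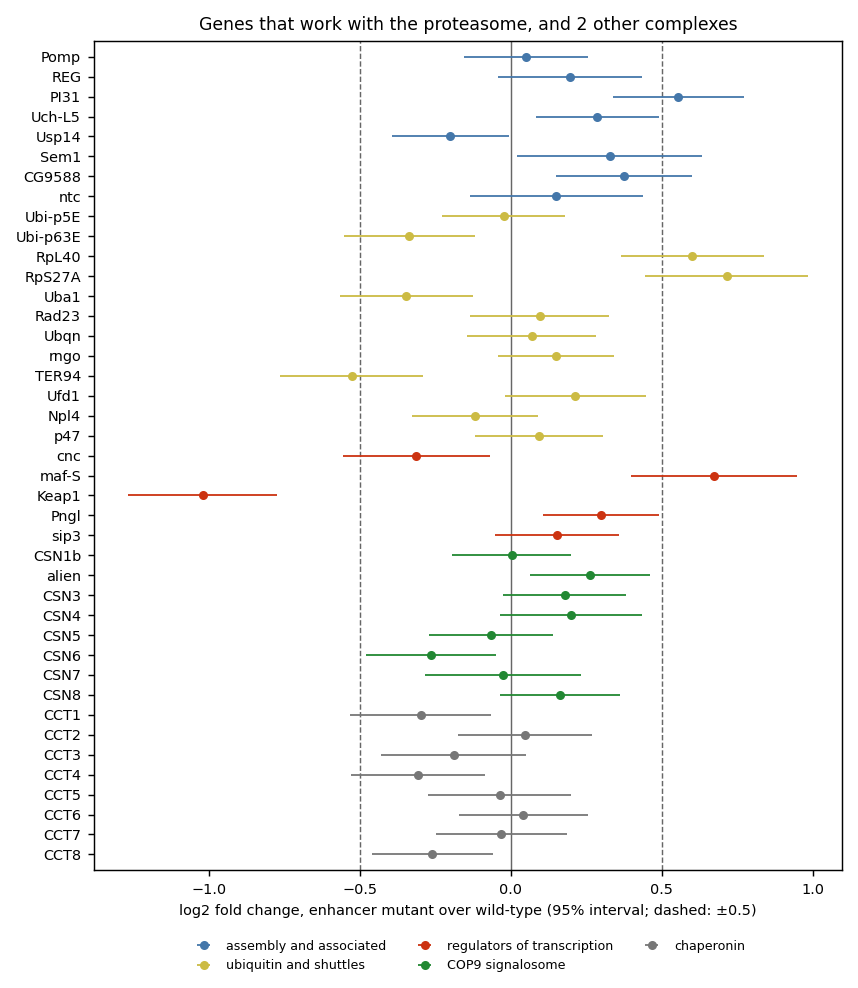
Log2 fold change, mutant over wild-type, with its 95% interval, for the tested genes of the 5 companion lists. *Keap1* at -1.02 and *TER94* at -0.53 lie below the lower dashed line of -0.5, *PI31*, *RpL40*, *RpS27A* and *maf-S* lie above the upper one, and the signalosome and chaperonin genes stay between them.

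The genes are scattered over the genome. The 32 somatic genes divide into 4 on arm 2L, 10 on 2R, 5 on 3L, 9 on 3R and 4 on X, and the nearest of the 48 to *Notch* on X lies 1960 kb away from it. The 4 somatic genes on X (*Prosalpha4*, *Rpt3*, *Rpt4* and *Rpt6*) had log2 fold changes from 0.0025 to 0.20, and none passed the adjusted p. Exons of 13 of the 32 overlap a gene on the opposite strand, over at most 13.0% of their length, in *Rpt6*, and the strandedness of the libraries is not given in the sources used here, so reads from these stretches cannot be assigned by strand. *Rpn1*, *Rpn2*, *Rpn10* and *Rpn13* have no such overlap.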

How the data were processed

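Total RNA of S2R+ cells, wild-type and enhancer mutant, was sequenced in 2 libraries each. The authors quantified transcripts with Salmon 0.10.2 on a dm6 index, with selective alignment and a correction for GC bias. Its annotation release is not given in the sources used here. The deposited estimated counts carry no normalization, whereas the deposited TPM values take the effective length into account and have the same sum in every library. The authors tested genes with DESeq2.

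Of 30070 transcripts, 29850 had a gene in the Ensembl annotation (dm6 coordinates). The 220 others held 0.230% to 0.292% of a library's counts and were left out. Estimated counts were summed per gene, rounded to whole numbers and tested with edgeR 4.0.16 (R 4.3.3) using filterByExpr, TMM factors of 0.9241 to 1.0825, glmQLFit and glmQLFTest. Benjamini-Hochberg adjustment covered 8182 genes, and the rows of the proteasome genes were read from that fit. The depth of 16240543 to 29605002 counts places a gene with 3 counts at 0.101 to 0.185 CPM. An exact permutation test of 2 against 2 libraries cannot go below p = 0.333, so none was used.

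Subunits, companion lists and markers were chosen with earlier results of these data known. Values per library are given for the catalytic subunits, the highest and lowest member of each class, every called member, paralogs with over 3 counts, *cnc*, *Pomp*, called companion genes and *Notch*. Other genes were named after their values were seen. Alternatives were DESeq2 1.42.0, RLE and upper quartile factors, library sizes alone, no filter (at least 1 count) or at least 10 counts in every library, an effective-length offset, a replicate block, each library left out, the adjusted p alone, a 1.5-fold limit and ratios of mean TPM (pseudocount 0.5). The fit was also run on simulated counts, drawn with the means and dispersions estimated from these libraries. Promoter and protein sequences were not analysed here.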

Additional observations from a re-analysis of the deposited data

How the results depend on the processing

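The number of called somatic genes, 1, was the same with DESeq2, RLE or upper quartile factors, either filter, the effective-length offset, the replicate block, the 1.5-fold limit and the summed *Prosalpha1* copies. It was 5 with library sizes alone (*Prosalpha2*, *Rpn1*, *Rpn2*, *Rpn3* and *Rpn13*, each lower) and 7 with the adjusted p alone, and 1 to 2 with a library left out, where leaving out wild-type replicate 1 added *Prosalpha1*. Over all genes, the adjusted p alone gave 3984 calls and leaving out a library 1846 to 2296. Library sizes alone gave 2544, split into 1984 lower and 560 higher against 1254 and 1031 with TMM. The median of the 32 genes was -0.16 under library sizes alone, -0.40 in TPM and -0.064 to 0.089 with a library left out.

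Changes of sign were found among genes that were not called. With library sizes alone the log2 fold change was -0.0040 for *Prosbeta1*, -0.15 for *Prosbeta5*, -0.18 for *Prosalpha1R* and -0.15 for *Pomp*. On the TPM scale it was -0.22 for *Prosbeta1*, -0.39 for *Prosbeta5*, -0.0071 for *Prosalpha1*, -0.22 for *Rpt5*, -0.17 for *Rpn5*, -0.41 for *Prosalpha1R* and -0.37 for *Pomp*. These shifts follow from the scaling, which moved the median of all tested genes to -0.20 and -0.40. *Prosalpha1R* was at -0.017 with upper quartile factors and -0.0069 with the stricter filter (10 counts), and *Rpt1* at 0.011 with no filter; the cause was not tested. With a library left out, *Prosbeta5* ranged from -0.085 to 0.18, *Rpt1* from -0.15 to 0.10, *Prosalpha1R* from -0.092 to 0.12 and *Pomp* from -0.00073 to 0.10. *PI31* (0.36), *RpL40* (0.41) and *maf-S* (0.48) missed the limit on size with library sizes alone, as *TER94* did with no filter (-0.49). On the TPM scale, where the median of all tested genes was -0.40, *PI31* was at 0.12, *RpL40* at 0.22, *RpS27A* at 0.33 and *maf-S* at 0.28. Without a mutant library, *cnc*, *Uch-L5*, *Pngl*, *Uba1* and *Ubi-p63E* no longer passed the adjusted p, with values of 0.0548 to 0.271 from edgeR. *Prosbeta2R2* lost its call with no filter (edgeR, adjusted p = 0.107) and could not be tested, like *Rpt3R*, under the stricter filter.

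The conditions share the replicate numbers 1 and 2. Across the tested genes, the difference between replicates 1 and 2 in the wild-type correlated at 0.168 with that in the mutant. With 2 pairs of libraries this does not establish a pairing. The replicate block called 2276 genes and the same 1 somatic gene. The adjusted p alone was then passed by 15 somatic genes (7 lower and 8 higher) in place of 7, and by 55.3% of all genes in place of 48.7%. The added ones were *Prosalpha4*, *Prosalpha7*, *Prosbeta1*, *Rpn6*, *Rpn7*, *Rpn9*, *Rpt3* and *Rpt5*, and *Prosbeta2R2* was no longer called with it (edgeR, adjusted p = 0.0509). With 2 libraries per group and 1 mutant clone, the fits cannot separate the deletion from other differences between the lines, and paralogs near 3 counts are at the limit of what this depth resolves.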
